A study of Homo sapiens with 7 samples.

Results

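Called PPARα peaks at the ends of protein-coding genes were examined in HepG2 cells, a line from a human hepatocellular carcinoma. A peak belonged to the set when its summit lay within 1 kb of either end of the span of exactly 1 protein-coding gene on chromosomes 1 to 22, and 3721 of the 149465 peaks in 6 lists did so. Chromatin was precipitated with an antibody to PPARα and sequenced. In the PPARα+ERα libraries the cells carried expression vectors for PPARα and for the estrogen receptor ERα, and received 10 nM PPT, an ERα-selective agonist, for 45 min before 10 µM WY14643, a PPARα agonist, for 2 h more. The PPARα+ERβ cells carried vectors for PPARα and ERβ and received 10 nM DPN, an ERβ-selective agonist, on the same schedule, and the PPARα cells carried the PPARα vector alone and received WY14643 for 2 h. All 3 groups thus overexpressed PPARα from a plasmid and were given its agonist, starting 48 h after transfection, and each estrogen receptor came with its own agonist. Each group held 2 libraries. Nothing in the labels says that they came from separate cultures, so SDs and p-values measure a spread between libraries that may be technical. A no-antibody sample was not analysed here.

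PPARα is a nuclear receptor that pairs with RXR on DNA, on direct repeats of AGGTCA spaced by 1 base, and is activated by fatty acids and fibrates. In liver it is known for turning on genes of fatty acid oxidation and ketone production. ERα and ERβ bind inverted repeats of the same core spaced by 3 bases, and many of their sites in cells lie far from genes. The end at which a gene is transcribed first holds its promoter, and the 3′ end its transcription stop. A called peak does not by itself show which protein held the site.

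The sequences below are the RefSeq promoters (GRCh38.p14, 250 bases before to 50 after the annotated start) of 7 genes with a summit inside that window, chosen among the highest ranked in a comparison below whose window held a summit. MED1 ranked 10 and SMYD5 11 for PPARα+ERα without PPARα, CELF2 16 and GCG 126 for the reverse, GADD45GIP1 5 and GTF3C3 6 for PPARα+ERβ without PPARα, and C6orf52 1 over all 6 libraries. Apart from C6orf52, these are therefore not the top regions of their comparison. ABCA12, ranked 83 for PPARα without PPARα+ERα, also held summits in its window but is not printed. In the PPARα lists the GCG peaks stood at percentiles 58.2 and 80.38 of −log10 q within their own list. The sequences are read in the direction of the gene. Capitals mark every match to a motif searched on both strands, among them GGGCGG, known as the GC box, CCAAT, the ETS core CCGGAA, the YY1 core AAGATGG, the TATA box, the ZBTB33 site CTCGCGAG and AGGTCA of nuclear receptors.
MED1, chr17:39451214-39451513, strand minus: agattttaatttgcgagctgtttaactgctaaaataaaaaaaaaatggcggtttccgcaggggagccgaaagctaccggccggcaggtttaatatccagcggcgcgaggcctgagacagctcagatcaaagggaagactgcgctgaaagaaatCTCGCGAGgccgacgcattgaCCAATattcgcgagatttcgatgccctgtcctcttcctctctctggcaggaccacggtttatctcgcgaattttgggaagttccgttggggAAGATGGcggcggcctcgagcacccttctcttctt
SMYD5, chr2:73213995-73214294, strand plus: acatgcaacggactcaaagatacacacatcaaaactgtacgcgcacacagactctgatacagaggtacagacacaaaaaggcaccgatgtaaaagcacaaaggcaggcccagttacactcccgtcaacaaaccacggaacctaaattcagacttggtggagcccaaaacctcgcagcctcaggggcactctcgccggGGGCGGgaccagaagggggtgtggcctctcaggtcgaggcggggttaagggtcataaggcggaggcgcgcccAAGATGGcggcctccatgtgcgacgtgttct
GADD45GIP1, chr19:12957174-12957473, strand minus: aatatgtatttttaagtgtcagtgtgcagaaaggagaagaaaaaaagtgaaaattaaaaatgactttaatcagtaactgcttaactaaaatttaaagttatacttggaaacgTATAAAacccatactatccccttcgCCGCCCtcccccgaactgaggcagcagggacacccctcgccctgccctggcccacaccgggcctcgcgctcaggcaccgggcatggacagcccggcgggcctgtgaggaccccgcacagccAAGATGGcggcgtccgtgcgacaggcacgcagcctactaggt
GTF3C3, chr2:196799634-196799933, strand minus: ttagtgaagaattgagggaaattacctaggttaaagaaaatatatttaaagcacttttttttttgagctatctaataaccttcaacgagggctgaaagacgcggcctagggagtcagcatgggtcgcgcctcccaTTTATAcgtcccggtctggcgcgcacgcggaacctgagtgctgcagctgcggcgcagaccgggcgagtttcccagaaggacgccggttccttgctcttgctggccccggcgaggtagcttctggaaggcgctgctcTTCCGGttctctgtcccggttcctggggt
CELF2, chr10:10462300-10462599, strand plus: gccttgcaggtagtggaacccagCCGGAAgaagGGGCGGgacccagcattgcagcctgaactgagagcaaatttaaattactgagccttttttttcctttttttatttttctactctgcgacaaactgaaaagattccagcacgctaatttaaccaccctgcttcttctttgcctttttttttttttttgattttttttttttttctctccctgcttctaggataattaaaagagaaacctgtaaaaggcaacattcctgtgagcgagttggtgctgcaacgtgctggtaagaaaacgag
GCG, chr2:162152198-162152497, strand minus: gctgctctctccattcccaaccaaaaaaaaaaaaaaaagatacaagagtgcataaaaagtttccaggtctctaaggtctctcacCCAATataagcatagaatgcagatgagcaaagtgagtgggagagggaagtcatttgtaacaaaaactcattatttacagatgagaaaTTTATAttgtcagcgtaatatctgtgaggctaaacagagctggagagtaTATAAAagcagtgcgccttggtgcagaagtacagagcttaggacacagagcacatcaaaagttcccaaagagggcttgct
C6orf52, chr6:10694567-10694866, strand minus: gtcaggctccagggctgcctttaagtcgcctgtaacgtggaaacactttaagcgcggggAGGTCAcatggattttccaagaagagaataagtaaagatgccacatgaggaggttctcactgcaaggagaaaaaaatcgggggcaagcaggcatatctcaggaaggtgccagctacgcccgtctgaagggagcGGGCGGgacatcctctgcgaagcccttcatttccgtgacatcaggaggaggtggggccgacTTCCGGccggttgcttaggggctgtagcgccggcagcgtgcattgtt
MED1 and SMYD5 are shown for PPARα+ERα, GTF3C3 for PPARα+ERβ, CELF2 and GCG for PPARα, and C6orf52 for all 6 libraries. GADD45GIP1 had peaks in all 4 co-transfected libraries, but only the summit of PPARα+ERα library 2 fell inside its printed sequence, at base 11. The CELF2 summits fell at base 85 in PPARα+ERβ library 1 and at bases 176 and 175 in the PPARα libraries. The MED1 summits fell at bases 60 and 88 of its sequence, the SMYD5 summits at bases 80 and 79, and the GTF3C3 summits at base 79 in PPARα+ERα library 1 and bases 77 and 76 in the PPARα+ERβ libraries. The 4 summits of MED1 and SMYD5 thus lay before all the marked motifs, far into the part that precedes the start. GCG summits lay at bases 145 and 144, between a CCAAT match at base 85 and a TATA box match at base 172. That match reads TTTATA, on the other strand, and the TATAAA in the direction of the gene lay at base 221. C6orf52 was the only one of the 7 with an AGGTCA match, at base 60. Its summits fell at bases 144 and 137 in PPARα+ERα cells, 74 and 107 with PPARα+ERβ, and 147 and 72 with PPARα.

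Gene ends took a larger part of the lists from co-transfected cells than of the PPARα lists. PPARα+ERα library 1 and library 2 had 642 and 708 peaks at the end of one gene, among 24145 and 27180 peaks. PPARα+ERβ lists held 482 and 609 of 17032 and 22697, and PPARα lists held 503 and 777 of 23182 and 35229. The shares were 2.66% (95% Wilson interval 2.46 to 2.87) and 2.60% (2.42 to 2.80) in PPARα+ERα cells, 2.83% (2.59 to 3.09) and 2.68% (2.48 to 2.90) with PPARα+ERβ, and 2.17% (1.99 to 2.37) and 2.21% (2.06 to 2.36) with PPARα. The bases that meet the rule made up 2.21% of chromosomes 1 to 22, gaps included, so the PPARα lists sat at the share of bases and all 4 co-transfected lists above it. Intervals cover counting error only.

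**Figure D1:**
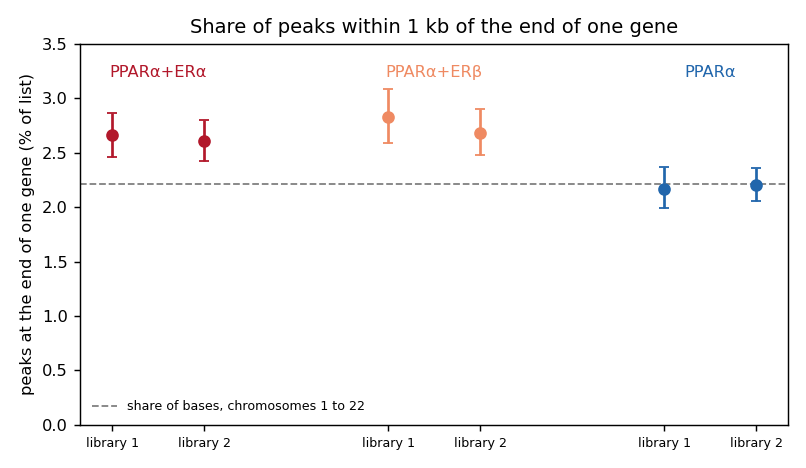
Peaks at the end of one gene as a percentage of each list, with 95% Wilson intervals, for the 2 libraries of each group. The dashed line is the 2.21% of bases that meet the rule, and the 4 co-transfected libraries lie above it at 2.60 to 2.83% while the PPARα libraries lie at 2.17 and 2.21%.

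The mean share was 2.63% ± 0.0382 in PPARα+ERα cells, 2.76% ± 0.104 with PPARα+ERβ and 2.19% ± 0.0253 with PPARα (SD, n = 2 each). PPARα+ERα exceeded PPARα by 0.444 percentage points and PPARα+ERβ exceeded PPARα by 0.569, more than the spread within any pair of libraries. The PPARα+ERα minus PPARα+ERβ difference was -0.125 points. In each of these 3 comparisons the groups did not overlap (exact two-sided permutation test, p = 0.333, the smallest that 2 against 2 libraries allow). Over the 15 ways to pair the 6 libraries, the labelled one put the closest shares together (exact permutation of the pairings, one-sided, p = 0.0667, again the smallest possible). The differences between the comparisons with PPARα share the same 2 PPARα libraries.

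The local background of the called sites differed between the groups, and the share by background class did not run the same way in each. The local background of a peak, the level of fragments its caller took as surroundings, had a median for peaks at gene ends of 2.50 times that of the whole genome with PPARα+ERα, 11 times with PPARα+ERβ and 15.8 times with PPARα. Peaks on a background of at most 3 times made up 65.9% of those at gene ends with PPARα+ERα, 20.6% with PPARα+ERβ and 15.0% with PPARα. Among these low-background peaks the shares at gene ends were 2.31 and 2.30% in PPARα+ERα cells, 2.65 and 2.39% with PPARα+ERβ, and 2.36 and 2.34% with PPARα, a PPARα+ERα minus PPARα difference of -0.0464 points. Above 3 times they were 3.67 and 3.61% in PPARα+ERα cells, 2.88 and 2.78% in PPARα+ERβ cells, and 2.14 and 2.19% in PPARα cells, and PPARα+ERα then exceeded PPARα+ERβ by 0.81 points. Fragments stacked at a summit also differed, with medians of 11 and 12 at gene ends with PPARα+ERα, 30.5 and 35 with PPARα+ERβ, and 36 and 54 with PPARα, so that PPARα+ERα peaks are known with the least precision. The part of depth in the difference was not tested.

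With strand known, the peaks of co-transfected cells lay at gene starts more often than those of PPARα cells. RefSeq promoters gave a strand for 15100 of the 19122 protein-coding genes, which is 79.0%. The nearer end was the start for 266 and 288 peaks and the 3′ end for 253 and 276 in PPARα+ERα cells. The start numbered 185 and 234 and the 3′ end 190 and 238 with PPARα+ERβ. PPARα libraries had 176 and 269 at starts and 224 and 347 at 3′ ends, so that 3′ ends led clearly in these alone. The start share was 51.3 and 51.1% in PPARα+ERα cells, 49.3 and 49.6% with PPARα+ERβ, and 44.0 and 43.7% with PPARα, where 48.8% of the bases that meet the rule are nearer a start. PPARα+ERα exceeded PPARα by 7.32 points, PPARα+ERβ exceeded PPARα by 5.62 and PPARα+ERα exceeded PPARα+ERβ by 1.70 points. The groups did not overlap in any of these comparisons (exact two-sided permutation test, p = 0.333 each, the smallest possible), and the labelled pairing again ranked first of 15 (exact, one-sided p = 0.0667). On a background of at most 3 times the start share was 47.5 and 44.7% in PPARα+ERα cells, 41.1 and 42.5% with PPARα+ERβ, and 42.2 and 37.5% with PPARα. The part of the background in the difference was not tested.

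Summits did not gather at the start itself. Of start summits, 13.9 and 9.03% in PPARα+ERα cells, 15.7 and 10.3% with PPARα+ERβ, and 14.2 and 12.3% with PPARα lay within 200 bp of the start, where 19.9% of the eligible bases do. Over all 6 libraries, 15.7% of start summits lay 600 to 800 bp before the gene, 6.28 and 5.99% in the 200 bp on either side of the start, and 5.08% from 200 to 400 bp inside it, with 12.9% again at 800 to 1000 bp inside. The dip was present in all 6 libraries. Shares this near the start were lower at CpG-rich promoters, those with at least 55% G and C and at least 0.65 of the CpG that base composition predicts. There 11.9 and 5.65% of summits with PPARα+ERα, 11.6 and 7.5% with PPARα+ERβ, and 8.26 and 6.67% with PPARα lay within 200 bp of the start. At the other promoters the values were 17.8 and 14.4% in PPARα+ERα cells, 25 and 16.2% in PPARα+ERβ cells, and 23.9 and 21.2% in PPARα cells, each above the value of its library at CpG-rich promoters. At these other promoters PPARα+ERβ library 1 and both PPARα libraries lay above the 19.9% of eligible bases, so they showed no dip there.

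Around 3′ ends the summits were more even. Those within 200 bp made up 24.9 and 22.5% in PPARα+ERα cells, 18.4 and 21.4% with PPARα+ERβ, and 21.4 and 23.9% with PPARα, beside 20.1% of bases. The lowest bin lay 200 to 400 bp inside the gene, with 5.43% of summits over all libraries. The share of summits inside the gene was 38.8 and 40.3% in PPARα+ERα cells, 40.7 and 36.8% with PPARα+ERβ, and 42.9 and 38.7% with PPARα, so that the groups overlapped, all below the 50.5% of bases. The PPARα+ERα minus PPARα difference of -1.32 points was 0.781 without PPARα library 1, and the PPARα+ERα minus PPARα+ERβ difference of 0.797 was -1.14 without PPARα+ERβ library 2.

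**Figure D2:**
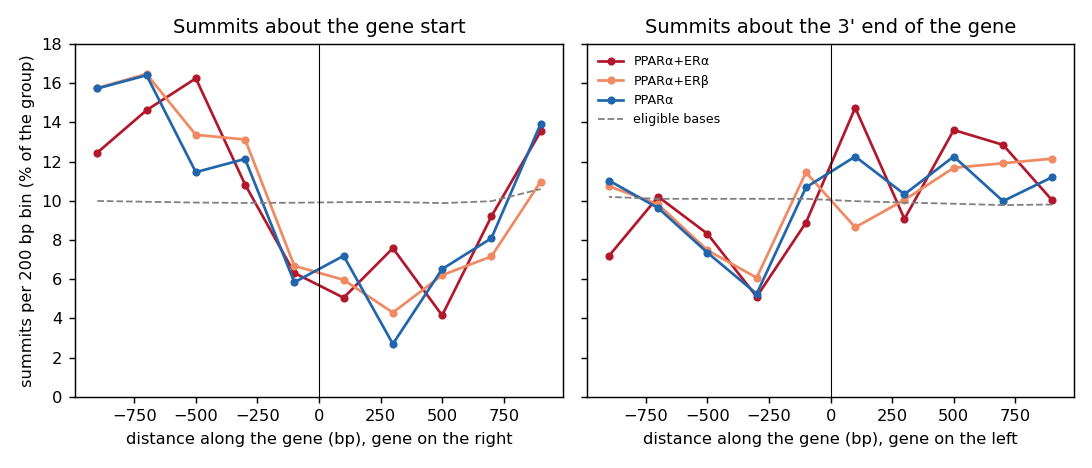
Summits by distance from the start (left) and the 3′ end (right) of their gene, in bins of 200 bp, as a percentage of each group's start or 3′ end summits, with the 2 libraries of a group added together and the eligible bases dashed. All 3 groups lie below the bases from 200 bp before the start to 800 bp inside the gene and above them 200 to 1000 bp before it.

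Peaks at starts ranked high in the co-transfected lists and in the middle of the PPARα lists. The measure is the percentile of a peak's −log10 q within its own list, where the middle peak of a list stands at 50. Start peaks had a median percentile of 70.9 and 73.4 in PPARα+ERα cells, 68.7 and 70.8 with PPARα+ERβ, and 50.5 and 55 with PPARα. Peaks at 3′ ends had 52.6 and 57.9 in PPARα+ERα cells, 49.7 and 54.5 in PPARα+ERβ cells, and 49.0 and 50.1 in PPARα cells. Start peaks of both co-transfected groups thus stood above those of PPARα without overlap, by 19.3 and 17.0 percentile points, and PPARα+ERα stood above PPARα+ERβ by 2.36 (exact two-sided permutation test, p = 0.333 each, the smallest possible). At 3′ ends PPARα+ERα also stood above PPARα without overlap, by 5.67 points (exact, p = 0.333), while PPARα+ERβ overlapped PPARα (exact, p = 0.667). On a background of at most 3 times, start peaks had 66.2 and 71.5 in PPARα+ERα cells, 56.7 and 55.5 with PPARα+ERβ, and 56.0 and 57.9 with PPARα, and PPARα+ERβ minus PPARα turned to -0.857.

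The strongest peaks of the PPARα+ERα lists were the most often at starts. Of start peaks, 7.89 and 7.29% belonged to the top 1% of their list with PPARα+ERα, a mean of 2.36% with PPARα+ERβ, and 1.70 and 1.12% with PPARα. At 3′ ends the values were 1.98 and 0.725% in PPARα+ERα cells, 1.58 and 1.26% in PPARα+ERβ cells, and 0.893 and 1.15% in PPARα cells. The start values rest on 21 and 21 peaks with PPARα+ERα, 4 and 6 with PPARα+ERβ, and 3 and 3 with PPARα, so the difference between PPARα+ERβ and PPARα is one of a few peaks.

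**Figure D3:**
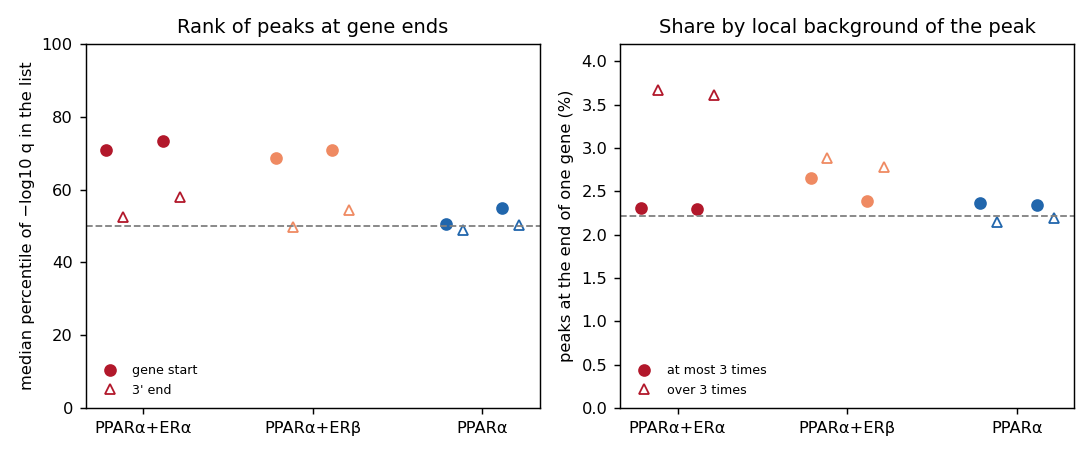
Left, median percentile of −log10 q within the list for peaks at starts (circles) and 3′ ends (open triangles) of each library, with the middle of the list dashed. Start peaks stand at 68.7 to 73.4 in the 4 co-transfected libraries and at 50.5 and 55 with PPARα. Right, share of peaks at the end of one gene among peaks on a local background of at most 3 times (circles) and over 3 times (open triangles) the genome-wide level, with the share of bases dashed. PPARα+ERα stands apart over 3 times, at 3.67 and 3.61%.

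Overlapping peaks were merged into regions, of which 2187 held a peak at a gene end, at 2076 genes. Where both libraries of a group had a peak, the region is called occupied in it. PPARα+ERα occupied 274 of the 1088 such regions found in either of its libraries, which is 25.2% (background of all regions, 20.7%). PPARα+ERβ occupied 314 of 784, or 40.1% (background 33.7%), and PPARα 381 of 905, or 42.1% (background 41.7%). Co-transfected libraries thus repeated gene-end regions somewhat more often than regions in general, and PPARα libraries about as often.

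PPARα+ERα had 260 gene-end regions with a peak in both of its libraries and in neither PPARα library, and PPARα had 351 the other way, of 1934 regions with a peak in any of the 4 libraries. These are 13.4 and 18.1%, against 10.2 and 20.0% of all regions, so gene ends lay above the background on the PPARα+ERα side and below it on the PPARα side. Among the 212 regions of the first kind with strand known, 129 lay at starts and 83 at 3′ ends. Starts made up 60.8% (Wilson interval 54.1 to 67.2) of the PPARα+ERα regions. They made up 43.1% (37.4 to 48.9) of the PPARα regions, where 121 lay at starts and 160 at 3′ ends. Of all regions occupied in a group, differing or not, starts made up 62.5% with PPARα+ERα and 43.8% with PPARα. The value for all gene-end regions was 45.6%. Leaving out PPARα+ERα library 1 gave 669 for the first count and leaving out library 2 gave 609, a single library then deciding it, and leaving out PPARα library 1 gave 734 for the second. With low-background peaks alone the counts were 170 and 44, so the order of the 2 sides turned, and with lists of equal length 218 and 193, which turned it as well.

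The 10 highest ranked PPARα+ERα regions lay at genes of varied roles, 7 of them at starts. PSMD1, a subunit of the proteasome cap, had a region 294 bp before its start (chr2:231056478-231056887), with 54 and 61 fragments at the summit on a background of 5.64 times with PPARα+ERα, and none of the other 4 libraries had a peak. Its fold, the authors' ratio of summit to local background, was 17.2 and 18.4. NOP56, a core protein of the particles that methylate ribosomal RNA, had 27 and 39 fragments (fold 20.1 and 28.2) on a background at the genome-wide level, 943 bp inside its start (chr20:2653304-2653676). MED1, the Mediator subunit that contacts nuclear receptors including PPARs and estrogen receptors, had 27 and 38 fragments (fold 11.2 and 14.9), 163 bp before its start (chr17:39451160-39451572). Neither NOP56 nor MED1 had a peak there in the other 4 libraries.

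RPN1, of the complex that attaches sugars to new proteins, had fold 17.5 and 13.5 in PPARα+ERα cells and also 6.71 in PPARα+ERβ library 2. SEH1L, a nuclear pore protein, had 9.56 and 7.37 in PPARα+ERα cells and 4.01 in PPARα+ERβ library 2. TPD52L2 had 9.74 and 9.69 in PPARα+ERα cells and 4.29 in PPARα+ERβ library 1. TXNDC11, a thioredoxin-like protein of the endoplasmic reticulum, had low folds of 4.38 and 4.53 but 89 fragments in both libraries, on backgrounds of 50.1 and 45 times. GHDC (15.8 and 16.2), ZMYM6, a zinc finger protein (15.5 and 13), and CGREF1 (11.2 and 11.8) had peaks in the PPARα+ERα libraries alone. CGREF1 was the only one of the 10 at a 3′ end, and RPN1 and ZMYM6 have no strand in the promoter table.

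On the PPARα side, TLL1, a protease that matures procollagen, led with 57 and 81 fragments in the PPARα libraries (fold 20.5 and 26.5) and no peak with PPARα+ERα, 882 bp past its 3′ end (chr4:166105045-166105518). PPARα+ERβ libraries had 28 and 43 fragments there. CCNE2, which encodes cyclin E2 (fold 13.3 and 16.8), and E2F8, a repressor of cell cycle genes (9.03 and 12.3), both drive or limit entry into DNA replication. RBM6, an RNA-binding protein (8.2 and 10.1), IMPG1, a proteoglycan of the retina (13.1 and 17.4), and the calcium-binding GCA (4.79 and 6.53) followed. So did CTBS, a lysosomal enzyme (6.38 and 5.79), CLEC4D, a lectin of myeloid cells (15.2 and 17.1), the centrosome protein CEP89 (13.9 and 21.8) and PDCL3, a phosducin-like chaperone (3.15 and 4.15). All 10 of these genes had a peak in PPARα+ERβ library 2 as well, and all but PDCL3 in PPARα+ERβ library 1. Of the 10, 3 lay at starts and 4 at 3′ ends.

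PPARα+ERβ and PPARα lists were closer. Peaks of PPARα+ERβ in both libraries, with none of PPARα, were found at 68 of 1215 gene-end regions, which is 5.60% (background 2.78%), and the reverse at 92, which is 7.57% (background 10.3%). Starts made up 60.4% (46.9 to 72.4) of the PPARα+ERβ regions, 32 against 21 at 3′ ends. They made up 32.5% (23.1 to 43.5) of the PPARα regions, 25 against 52. Of all regions occupied in these groups, starts made up 54% with PPARα+ERβ and 43.8% with PPARα. The first count was 221 without PPARα+ERβ library 1, 151 without its library 2 and 115 without PPARα library 2. The second count was 170 without PPARα+ERβ library 2 and 369 and 146 without PPARα library 1 and 2. With low-background peaks alone the counts were 16 and 7, and with lists of equal length 100 and 45. Both turned the order of the 2 sides. The low-background limit kept 21.1 and 24.2% of PPARα+ERβ peaks and 15.6 and 12.4% of PPARα peaks. Equal length kept 100 and 75.0% of PPARα+ERβ peaks and 73.5 and 48.3% of PPARα peaks. The part of this unequal removal in the turn was not tested.

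**Figure D4:**
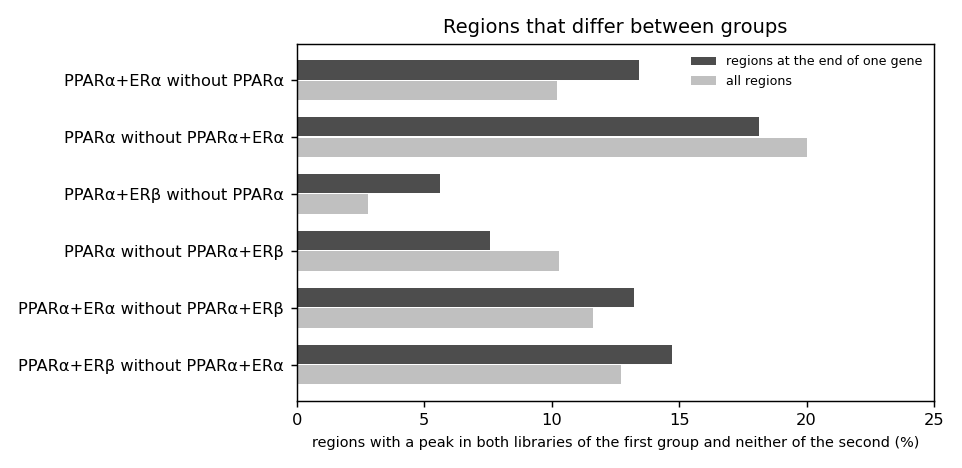
Regions with a peak in both libraries of the first group named and in neither of the second, as a percentage of regions with a peak in any of the 4 libraries, for regions at the end of one gene (dark) and all regions (light). Gene ends lie above all regions where a co-transfected group is named first and below them where PPARα is.

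GPCPD1, which breaks down glycerophosphocholine, led the PPARα+ERβ side with fold 7.46 and 8.21 and no peak in the other 4 libraries (chr20:5611580-5611912). PRRC2C (12.4 and 12.2), ZNF487 (4.88 and 4.81), RWDD2B (5.86 and 5.47), PKMYT1, a kinase that holds CDK1 inactive (79 and 92 fragments), and ZCCHC3 (2.97 and 2.97) were likewise found with PPARα+ERβ alone. GTF3C3, a subunit of the TFIIIC factor that recruits RNA polymerase III, had 52 and 72 fragments in the PPARα+ERβ libraries, 34 in PPARα+ERα library 1 and no peak in the others, 175 bp before its start (chr2:196799613-196799973). ATF1, which binds cyclic AMP response elements, had fold 6.93 and 8.74 with PPARα+ERβ and 6.38 in PPARα+ERα library 2. NDUFA10, of respiratory complex I (8.80 and 6.83), and GADD45GIP1, of the mitochondrial ribosome (5.19 and 4.59), had peaks in all 4 co-transfected libraries.

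The PPARα side held TSPO, a cholesterol-binding protein of the outer mitochondrial membrane (fold 8.53 and 11.3; chr22:43150482-43150856), and HYOU1, a chaperone of the endoplasmic reticulum (3.92 and 4.18). AADACL4 (5.60 and 7.69), CPHXL2 (5.60 and 7.41), the focal adhesion adaptor LIMS1 (3.35 and 3.59), SPRYD3 (3.38 and 6.16) and the elongation factor ELOF1 (3.36 and 3.72) were there as well. So were CAPN3, the muscle calpain (3.81 and 5.99), the olfactory receptor OR4K2 (2.65 and 3.09) and the protease TMPRSS11B (8.17 and 7.72). None of these 10 regions had a peak in any co-transfected library.

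Between the co-transfected groups, 234 of 1767 gene-end regions were occupied with PPARα+ERα and had no PPARα+ERβ peak, which is 13.2% (background 11.6%), and 260 the reverse, which is 14.7% (background 12.7%). Starts made up 58.1% (51 to 64.9) of the first and 49.8% (43 to 56.5) of the second. The first count was 637 and 569 without PPARα+ERα library 1 and 2, and the second 523 and 410 without PPARα+ERβ library 1 and 2. With low-background peaks alone the first was 164 and the second 38. That limit kept 74.0 and 76.7% of PPARα+ERα peaks but 21.1 and 24.2% of PPARα+ERβ peaks. Beside PSMD1, NOP56, TXNDC11, GHDC, ZMYM6, CGREF1 and MED1, the PPARα+ERα side was led by SMYD5 (fold 15.8 and 13.6), the acyltransferase gene MOGAT3, which makes diacylglycerol (18.0 and 12.7), and ZNF556 (18.0 and 12.7). On the PPARα+ERβ side, CNFN (17.7 and 18.1), GGT7 (110 and 124 fragments), MBOAT4, which acylates ghrelin (12.7 and 14.7), PPP1R15B, which helps dephosphorylate eIF2α (9.55 and 11.1), and VPS54, a Golgi tether (6.44 and 6.75), ranked with CCNE2, CTBS, GPCPD1, PRRC2C and ZNF487. CNFN, GGT7, MBOAT4, PPP1R15B and VPS54 had peaks in both PPARα libraries too.

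Peaks in all 6 libraries stood at 8 of the 2187 gene-end regions, which is 0.366% (background 0.135%). C6orf52, whose promoter is printed above, had the most fragments, 219 and 238 in PPARα+ERα cells, 284 and 318 with PPARα+ERβ, and 98 and 152 with PPARα (chr6:10694265-10694922). Its span in the gene table reaches past the promoter's start, so that its summit counts as 168 bp inside the gene. MLXIP, a glucose-responsive transcription factor, had 39 and 36 fragments in PPARα+ERα cells, 84 and 95 in PPARα+ERβ cells, and 49 and 84 in PPARα cells (chr12:122078184-122078621). The others were DAZAP2, PRICKLE1 of planar cell polarity, POLR3K of RNA polymerase III, CBFB, the partner of RUNX factors, HCAR1, the lactate receptor, and ATP6V0A1 of the proton pump of lysosomes. Of the 8, 6 had strand known and all of these lay at starts, beside 45.6% of all gene-end regions with strand known.

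Another 9 regions, or 0.411% (background 0.104%), had peaks in all 4 co-transfected and neither PPARα library. These genes were picked after their values were seen. The 7 with strand known lay at starts, beside 45.6% of all gene-end regions with strand known. GADD45GIP1 had 60 and 56 fragments in PPARα+ERα cells and 53 and 75 in PPARα+ERβ cells in the region 285 bp before its start (chr19:12957187-12957580). FST, the activin antagonist follistatin, had 26 and 31 fragments with PPARα+ERα, against 32 and 38 in PPARα+ERβ cells. The rest were NDUFA10, the SUMO protease SENP7, NFX1, ZNF362, ZC3H6, ZCCHC7 and PARP2, a DNA repair enzyme. The PPARα+ERβ peaks of PARP2 stood at percentiles 3.17 and 0.747 of their lists, near the bottom.

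Of the genes that PPARα is best known for, few had a peak at an end in both libraries of a group. A gene was counted as occupied when both libraries of a group had a peak at one of its ends, which held for 1.41% of 19122 genes with PPARα+ERα, 1.61% with PPARα+ERβ and 1.98% with PPARα, and 10.9% had a peak in at least 1 of the 6 libraries. Of 41 fatty acid oxidation genes, 2 were occupied in each group, which is 4.88% and above the share of all genes. This rests on 2 genes per group and was not tested. Of the 41, 7, or 17.1%, had a peak in some library. ETFA, which takes electrons from the acyl-CoA dehydrogenases (fold 8.83 and 8.08), and ACSL3, which activates fatty acids (9.19 and 7.26), were occupied with PPARα+ERα. ECH1, an isomerase for unsaturated fatty acids (3.73 and 4.96), was occupied with PPARα+ERβ and ACAA2, a thiolase (6.97 and 4.40), with PPARα. ACAA2 also had a peak in PPARα+ERβ library 2 (4.83). SLC25A20, the carnitine carrier, was occupied with PPARα+ERβ (4.50 and 9.53) and with PPARα (5.73 and 12.5). ETFA and ACSL3 were at starts, and ACAA2 and SLC25A20 at 3′ ends. Of 45 other lipid handling genes and PPAR targets, none was occupied in any group and 5 had a peak in some library. Of 44 cholesterol and fatty acid synthesis genes none was occupied with PPARα+ERα, and CYP51A1, of cholesterol synthesis, was the 1 occupied with PPARα+ERβ and with PPARα.

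Of 65 plasma protein genes, 4 were occupied with PPARα+ERα, none with PPARα+ERβ and none with PPARα. They were F5, coagulation factor V (fold 4.74 and 11.5), FGG, a fibrinogen chain (10.1 and 12.7), SCARB1, the receptor for high-density lipoprotein (9.35 and 9.16), and HPX, hemopexin (6.47 and 7.75). FGG, SCARB1 and HPX stood at the genome-wide background. Counted per library, 4 and 6 of the 65 genes had a peak with PPARα+ERα, 2 and 1 with PPARα+ERβ, and 1 and 2 with PPARα. These are 6.15 and 9.23% in PPARα+ERα cells, 3.08 and 1.54% in PPARα+ERβ cells, and 1.54 and 3.08% in PPARα cells. Of all genes, 3.29 and 3.64% had a peak in PPARα+ERα cells, 2.45 and 3.1% in PPARα+ERβ cells, and 2.61 and 3.99% in PPARα cells. Estrogen response genes were occupied in no group, of 40, and 2 had a peak in some library. PPARA, ESR1 and ESR2, the genes of the transfected receptors, had no peak at an end in any library. Of 44 nuclear receptor genes RORB was occupied, with PPARα, and of 27 coregulator genes TBL1XR1, of the NCoR corepressor complex, with PPARα, and of 31 Mediator genes MED1, with PPARα+ERα. None of 34 genes of cGMP and natriuretic peptide signalling was occupied.

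Counts for genes that all cells use varied from list to list. Of 80 cytosolic ribosomal protein genes, 4 were occupied with PPARα+ERα, 5 with PPARα+ERβ and 2 with PPARα, and 19 had a peak in some library, which is 23.8% against 10.9% of all genes. RPS7 (fold 8.49 and 11.3) and RPL32 (7.20 and 6.34) were occupied with PPARα+ERα, and RPL29 (4.48 and 3.91) with PPARα+ERβ. RPL29 also had a peak in PPARα library 2 (3.87). RPS13 was occupied with PPARα+ERβ (8.83 and 6.96) and PPARα (9.48 and 11). Of 45 general transcription factor genes, 2 were occupied with PPARα+ERα, 4 with PPARα+ERβ and 3 with PPARα. TAF13, a subunit of TFIID, was occupied with PPARα+ERα (7.51 and 8.13) and TAF12 with PPARα+ERβ (4.01 and 3.61). TAF12 also had a peak in PPARα library 2, with fold 4.725 and 81 fragments. TAF5 was occupied both with PPARα+ERβ (3.48 and 3.59) and with PPARα (2.78 and 3.65). Of 100 respiratory chain genes, 4 were occupied with PPARα+ERα, 2 with PPARα+ERβ and 2 with PPARα, among them COX5B (10.6 and 11.5), ATP5ME (10.1 and 9.86), ATP5PF (8.02 and 6.72) and NDUFA10 in PPARα+ERα cells. These counts are small, and no test was made of any list.

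Zinc finger genes were the largest group, with 15 of 498 occupied with PPARα+ERα, 15 with PPARα+ERβ and 13 with PPARα. These are 3.01, 3.01 and 2.61%, beside 1.41, 1.61 and 1.98% of all genes in the same order. A peak in some library was found at 97, or 19.5%. ZNF556 (18.0 and 12.7) and ZNF143, a factor of housekeeping promoters (6.38 and 5.16), were occupied with PPARα+ERα. ZNF281 (5.11 and 6.96 with PPARα+ERβ, 6.12 and 6.54 with PPARα) and ZNF154 (3.26 and 4.90 with PPARα) were occupied in the other groups. Many of these genes lie on chromosome 19, where gene-end peaks made up 11 and 9.45% of that chromosome's peaks with PPARα+ERα, 7.93 and 8.31% with PPARα+ERβ, and 7.13 and 7.31% with PPARα. On chromosome 4 the share was 1.38 and 1.39% in PPARα+ERα cells, 1.58 and 1.69% in PPARα+ERβ cells, and 1.08 and 1.23% in PPARα cells. The share of bases that meet the rule was not computed for single chromosomes. The contrast between these 2 chromosomes therefore does not show that peaks gather at gene ends on chromosome 19. Near-identical copies among zinc finger, olfactory receptor and histone genes can share reads, so single peaks there are uncertain. Olfactory receptor genes, silent in liver cells, were occupied in 3 of 391 cases with PPARα+ERα, 4 with PPARα+ERβ and 7 with PPARα. These are 0.767, 1.02 and 1.79%, each below the share of all genes, which also rose in this order. Of 25 circadian genes, 1 (4%) was occupied with PPARα+ERα, 1 (4%) with PPARα+ERβ and 3 (12%) with PPARα. CSNK1E, a clock kinase, had fold 8.39 and 10.7 in PPARα+ERα cells. BHLHE40, a clock repressor, had 3.46 and 4.03 with PPARα+ERβ and 3.68 and 2.89 with PPARα, where RORB and TIMELESS were occupied too. TIMELESS also had a peak in PPARα+ERβ library 2 (3.265). Of 89 DNA replication and cell cycle genes, none was occupied with PPARα+ERα, 3 (3.37%) with PPARα+ERβ and 4 (4.49%) with PPARα. CCNE2 and E2F8 were occupied in both of the latter groups. In single libraries, 4 and 5 of the 89 genes had a peak with PPARα+ERα, 5 and 3 with PPARα+ERβ, and 4 and 6 with PPARα. In the same order these are 4.49 and 5.62%, 5.62 and 3.37%, and 4.49 and 6.74%. Peaks at these genes were thus not missing from the PPARα+ERα libraries.

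**Figure D5:**
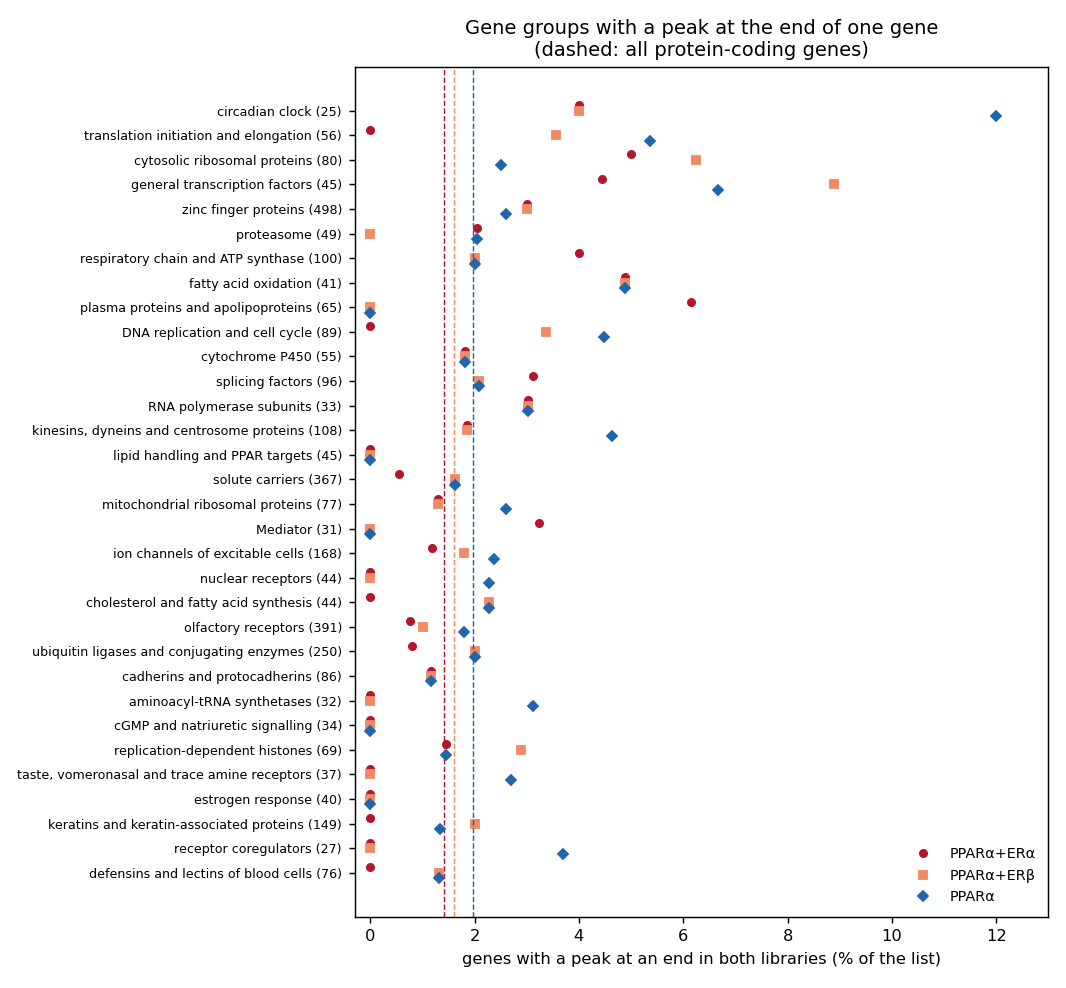
Percentage of the genes of each list with a peak at an end in both libraries of a group, with the number of genes in brackets and the percentage of all protein-coding genes dashed in the colour of the group. Lists run from the highest to the lowest percentage of genes with a peak in any library, and plasma protein genes show 6.15% in PPARα+ERα cells and 0 with PPARα+ERβ and PPARα.

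No promoter of a gene with a start peak held the exact letters of a classical receptor site. The direct repeat, AGGTCA followed after 1 base by AGGTCA, was found in 3 of 15100 promoters and in none with a start peak in any library, and the estrogen response element, GGTCA and TGACC spaced by 3 bases, in 6 of 15100 and none. Matches this rare would hardly occur among the 176 to 283 promoters with a start peak per library. Their absence therefore says nothing about the peaks. A single AGGTCA was in 10.2 and 11.3% of promoters with PPARα+ERα start peaks, 10.9 and 10.8% with PPARα+ERβ, and 10.2 and 8.96% with PPARα, against 11.7% of all promoters. The window covers 300 bases about the start, whereas most start summits lay outside it, and exact letters miss the degenerate sites these receptors use. GGGCGG was in 65.9 and 61.5% in PPARα+ERα cells, 67.4 and 66.8% with PPARα+ERβ, and 58.5 and 58.2% with PPARα, against 58.9% of all, and PPARα did not overlap the others (exact two-sided permutation test, p = 0.333 each, the smallest possible). TGACGTCA, the cyclic AMP response element, was in 4.17 and 6.01% in PPARα+ERα cells, 4.35 and 3.88% in PPARα+ERβ cells, and 2.84 and 2.61% in PPARα cells, against 2.65% of all, with both co-transfected groups again above PPARα without overlap (exact, p = 0.333). AAGATGG was in 9.85 and 8.83% in PPARα+ERα cells, 5.98 and 7.33% with PPARα+ERβ, and 6.82 and 7.09% with PPARα, against 6.31% of all, and only the 2 PPARα+ERα libraries stood above the rest (exact, p = 0.333 against PPARα). The start-peak values are among 51 comparisons of promoter features, none of which can pass a correction with 2 libraries a group. At genes with a 3′ end peak, AAGATGG was in 8.33 and 7.27% of promoters with PPARα+ERα, 4.79 and 2.97% with PPARα+ERβ, and 5.8 and 4.66% with PPARα. PPARα+ERα thus stood above the rest there too. GGGCGG and TGACGTCA did not keep their order there, with PPARα+ERα lowest for the first and PPARα+ERβ lowest for the second. The annotated start of the promoter table lay at the end of the gene span for 83.7% of the 15100 genes and more than 1 kb from it for 9.76%. CpG-rich promoters made up 66.3 and 61.5% in PPARα+ERα cells, 70.1 and 68.5% in PPARα+ERβ cells, and 61.9 and 61.6% in PPARα cells, against 57.8% of all promoters.

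Gene-end peaks often lay near other annotation. Between 8.7 and 10.1% of them per library were inside another protein-coding gene and 6.76 to 9.03% within 1 kb of the end of a long noncoding RNA, so that a peak at the end of one gene is not always its only neighbour. Their genes had a median length of 25 to 29 kb, beside the 24.5 kb of all genes. At the limit of 1 kb, 60 and 80 peaks lay in the last 100 bp inside it with PPARα+ERα, 72 and 79 with PPARα+ERβ, and 62 and 114 with PPARα, and the first 100 bp outside held 57 and 73 in PPARα+ERα cells, 52 and 69 in PPARα+ERβ cells, and 60 and 82 in PPARα cells. Their median −log10 q was 7.57 and 6.57 inside against 5.93 and 6.87 outside with PPARα+ERα, 8.46 and 10.1 against 8.78 and 9.45 with PPARα+ERβ, and 9.15 and 15.6 against 9.92 and 15.8 with PPARα.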

How the data were processed

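PPARα ChIP libraries of HepG2 cells, 2 in each of 3 groups, have one deposited peak list each. Bowtie 1.0.1, MACS2 2.2.7.1 and Trim Galore 0.6.4 are listed with hg38 in the submitters' processing notes, and the control for calling is not given in the sources used here. In the score column the authors gave 10 times the −log10 q without decimals. Their deposited fold is a ratio of summit to local background within 1 library, so folds of different lists were not compared. The deposited −log10 p and −log10 q belong to the summit. Fragments at the summit and the local background were computed from the deposited fold and −log10 p, and a whole fragment number returned the p of 100% of peaks within 0.001. Read depth is not given in these lists.

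Gene spans came from a RefSeq table of GRCh38.p14. Peaks overlapping by 1 bp or more were merged into regions. Groups were compared by exact permutation of libraries with Python 3.11.15, pandas 2.3.3, NumPy 2.4.6 and SciPy 1.17.1. The steps were tested on simulated data. Per comparison and direction, the 10 genes named had the highest lower percentile of −log10 q, and up to 4 per list and group were named. The members, lists and rules were chosen with earlier results of these data known. Alternatives were a 500 bp window, a 2 kb window for the shares alone, overlap of 50% of the shorter peak, −log10 q of at least 5, lists of equal length, background classes and leaving out each library. Exons and introns were not used here.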

Additional observations from a re-analysis of the deposited data

Results flagged for a closer look

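Chromosome X lay outside the rule, and 80 peaks there had their summit within 1 kb of an end of exactly 1 protein-coding gene. They numbered 9 and 11 in PPARα+ERα cells, 11 and 15 with PPARα+ERβ, and 13 and 21 with PPARα. As a share of the chromosome X peaks of each list these were 2.5 and 3.02% in PPARα+ERα cells, 2.59 and 2.48% in PPARα+ERβ cells, and 2.09 and 1.96% in PPARα cells, of 360 to 1073 peaks per list. It was singled out as a signal in data that no comparison above uses. No control library was analysed here.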

How the results depend on the processing

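The start share of both co-transfected groups over PPARα kept its direction under every alternative run for it, at 6.27 to 16.8 points for PPARα+ERα and 1.93 to 8.36 for PPARα+ERβ, and so did the share of gene-end peaks for PPARα+ERβ over PPARα, at 0.168 to 0.943. With peaks on a background of at most 3 times, the share of gene-end peaks turned to -0.0464 points for PPARα+ERα minus PPARα, and the start percentile to -0.857 for PPARα+ERβ minus PPARα. The share of PPARα+ERα minus PPARα+ERβ turned to 0.166 with −log10 q of at least 5, 0.153 with lists of equal length and 0.81 on a background over 3 times. Within 500 bp, PPARα+ERα minus PPARα+ERβ turned to -0.344 points for summits inside the gene, -0.395 for the start share and -3.94 for the start percentile. Leaving out a library gave -3.42 to 0.781 points inside the gene for PPARα+ERα minus PPARα and -1.14 to 2.74 for PPARα+ERα minus PPARα+ERβ. The cause was not tested.

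Within 500 bp the differing regions numbered 124 for PPARα+ERα without PPARα, 150 for the reverse, 30 for PPARα+ERβ without PPARα, 47 for the reverse, 111 for PPARα+ERα without PPARα+ERβ and 111 for the reverse, the window being smaller. At a background of at most 3 times the first 4 counts were 170, 44, 16 and 7 and the last 38. That limit kept 74.0 and 76.7% of PPARα+ERα peaks, 21.1 and 24.2% with PPARα+ERβ, and 15.6 and 12.4% with PPARα. With lists of equal length PPARα without PPARα+ERα gave 193 and PPARα without PPARα+ERβ 45. Leaving out a library gave 260 to 669, 351 to 734, 68 to 221, 92 to 369, 234 to 637 and 260 to 523 in the order of the counts within 500 bp. No paired analysis was possible because the labels give no replicate numbers shared between groups. PPARα+ERα summits rest on the fewest fragments. Of the 60 named differing regions, 27 stayed in the set and differed within 500 bp, and 12 with low-background peaks alone. The others fell outside the limit of distance or background, so their difference was not retested.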
